A study of Homo sapiens with 6 samples.

Results

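Expression of 9 genes that mark or score leukaemic stem cells was examined after knockdown of TAZ, the gene for tafazzin, a mitochondrial enzyme that remodels cardiolipin. The genes are the surface proteins CD34, KIT, FLT3 and CD44, and MMRN1, GPR56, LAPTM4B, NGFRAP1 and SOCS2, which together with CD34 belong to the LSC17 score, a 17-gene stemness score for acute myeloid leukaemia. They were looked up by symbol in the deposited expression tables, where 6 of the 9 had a row (KIT, FLT3, CD44, MMRN1, LAPTM4B and SOCS2) among 13002 genes in all. CD34, GPR56 and NGFRAP1 had no row under these symbols, under the current symbols ADGRG1 and BEX3 or under their gene IDs, and are not analysed here. No gene in the tables had fewer than 13 reads summed over the 6 libraries.

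Leukaemic stem cells are the cells of a leukaemia that renew themselves and regrow the disease, and they share surface proteins and transcripts with normal blood stem and progenitor cells. KIT and FLT3 are receptor tyrosine kinases for stem cell factor and FLT3 ligand, and both signal through PI3 kinase, RAS and STAT5. CD44 binds hyaluronan and anchors leukaemic cells in the marrow. SOCS2 is a feedback inhibitor of cytokine signalling and a target of STAT5, MMRN1 encodes multimerin, a protein stored in platelets and endothelium, and LAPTM4B is a membrane protein of late endosomes and lysosomes.

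The cells were OCI-AML2, a widely used human line of acute myeloid leukaemia that the labels describe as engineered and as leukaemic stem cells. All groups received a lentiviral hairpin and 3 days of puromycin (2.0 µg/mL) to select transduced cells. The groups were TAZ shRNA1, TAZ shRNA2 and a control hairpin (a scramble sequence per the labels, while its table columns carry the name GFP), with 2 libraries each, lettered A and B. Whether A and B were separate cultures is not stated, so a p-value reflects only how these libraries scatter, and that scatter may be technical. All results come from 1 cell line in bulk, where fewer cells of a kind and less RNA per cell cannot be told apart.

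Levels are in RPKM, a read density corrected for gene length and sequencing depth, and each library held between 18820248 and 20980538 reads in listed genes. A gene was tested where its mean over the libraries compared was at least 1 RPKM, and it was called where the adjusted p of limma on log2(RPKM + 0.5) was under 0.05 over all genes tested. Fold changes below are on that log2 scale, which understates changes of low genes. TAZ itself had 4.02 and 4.10 RPKM with shRNA1, 1.47 and 2.13 RPKM with shRNA2 and 11.3 and 11.9 RPKM in control. Of 8 myeloid markers 7 had a row, with summed levels of 5153 to 5690 RPKM with shRNA1, 3888 to 4646 RPKM with shRNA2 and 1014 to 1164 RPKM in control. LYZ made up most of these sums, at 5236 and 4742 RPKM with shRNA1, 4221 and 3494 RPKM with shRNA2 and 785.8 and 676 RPKM in control. MPO was lower in the hairpin libraries, at 5.16 and 4.63 RPKM with shRNA1, 1.02 and 1.49 RPKM with shRNA2 and 11.2 and 10.1 RPKM in control. CEBPA and SPI1 each overlapped control in at least 1 hairpin group. CD33, CSF3R and PTPRC lay above both control libraries in every TAZ hairpin library. Among surface proteins of blood stem cells, CD34, PROM1 and THY1 had no row, and KIT was near 0. Others were present: FLT3 stood between 22.5 and 39.7 RPKM and CD44 between 27.7 and 69.9 RPKM over the 6 libraries. Of 20 other surface proteins of stem cells and blasts, described below, 14 had a row.

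Promoter sequences are shown for the members whose RNA was called and for which RefSeq gave a window, to set the 2 starts of MMRN1, which rose with both hairpins, beside FLT3 and CD44. Of the 6 members with a row, KIT, FLT3, CD44 and MMRN1 matched by symbol (4 in all), and SOCS2 and LAPTM4B did not. Each is the 250 bases before the transcript start in RefSeq on GRCh38.p14, 5′ to 3′ on the strand of the gene, with motif matches in capitals. The MMRN1 windows lie at chr4:89879261-89879510 and chr4:89894604-89894853 on the plus strand, the FLT3 window at chr13:28100577-28100826 on the minus strand and the CD44 window at chr11:35138921-35139170 on the plus strand.
MMRN1 start 1: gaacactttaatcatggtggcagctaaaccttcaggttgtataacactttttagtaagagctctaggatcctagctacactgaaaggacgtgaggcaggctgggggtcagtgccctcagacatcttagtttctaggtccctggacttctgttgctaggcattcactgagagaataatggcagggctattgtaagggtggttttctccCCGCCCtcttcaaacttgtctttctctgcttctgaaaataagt
MMRN1 start 2: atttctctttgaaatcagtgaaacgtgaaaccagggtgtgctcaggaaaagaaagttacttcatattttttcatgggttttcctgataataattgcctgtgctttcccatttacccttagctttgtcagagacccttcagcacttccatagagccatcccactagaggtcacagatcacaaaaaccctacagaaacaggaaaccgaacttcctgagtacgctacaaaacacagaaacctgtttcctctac
FLT3: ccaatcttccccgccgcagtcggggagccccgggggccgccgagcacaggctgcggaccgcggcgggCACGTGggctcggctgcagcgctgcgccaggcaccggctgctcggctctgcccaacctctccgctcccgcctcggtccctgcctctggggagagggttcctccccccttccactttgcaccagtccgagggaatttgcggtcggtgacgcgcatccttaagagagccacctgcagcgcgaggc
CD44: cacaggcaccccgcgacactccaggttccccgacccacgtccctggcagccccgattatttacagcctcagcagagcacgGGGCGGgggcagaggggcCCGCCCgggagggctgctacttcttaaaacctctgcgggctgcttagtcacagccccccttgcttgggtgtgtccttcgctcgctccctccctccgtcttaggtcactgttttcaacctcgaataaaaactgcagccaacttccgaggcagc

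Both MMRN1 windows were poor in CG pairs, with 2 and 3 of them and a GC content of 46.0% and 41.6%. The FLT3 window held 26 CG pairs at 72.0% GC and the CD44 window 15 at 62.4% GC, beside a median of 11 pairs over 35116 RefSeq windows of the same length. The windows were searched on both strands for 7 motifs, and no match overlapped another. The SP1 motif GGGCGG, found in 42.6% of all windows, matched 43 bases before MMRN1 start 1 and at 170 and 152 bases before the CD44 start. The E-box CACGTG, in 6.34% of all windows, matched 183 bases before the FLT3 start. The other letters searched had no match in these windows: the STAT motif TTCNNNGAA (in 6.57% of all windows), the GATA motif GATAAG (5.65%), the RUNX motif TGTGGT (3855 of 35116), the ETS motif CCGGAA (14.5%) and the TATA box TATAAA (10.7%). A match describes letters and is not a measured binding site.

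With shRNA1, FLT3 and MMRN1 rose and LAPTM4B fell, while CD44 and SOCS2 did not pass the test. With shRNA2, MMRN1 and SOCS2 rose and CD44 fell, while FLT3 and LAPTM4B did not pass. That is 3 of 5 members tested with shRNA1 (2 higher, 1 lower), where 18.6% of 10613 genes were called (9.99% higher, 8.58% lower). With shRNA2 it is also 3 of 5 (2 higher, 1 lower), where 15.7% of 10659 genes were called (8.12% higher, 7.61% lower). Both comparisons use the same control libraries. KIT lay under the filter in every comparison and was not tested.

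**Figure D1:**
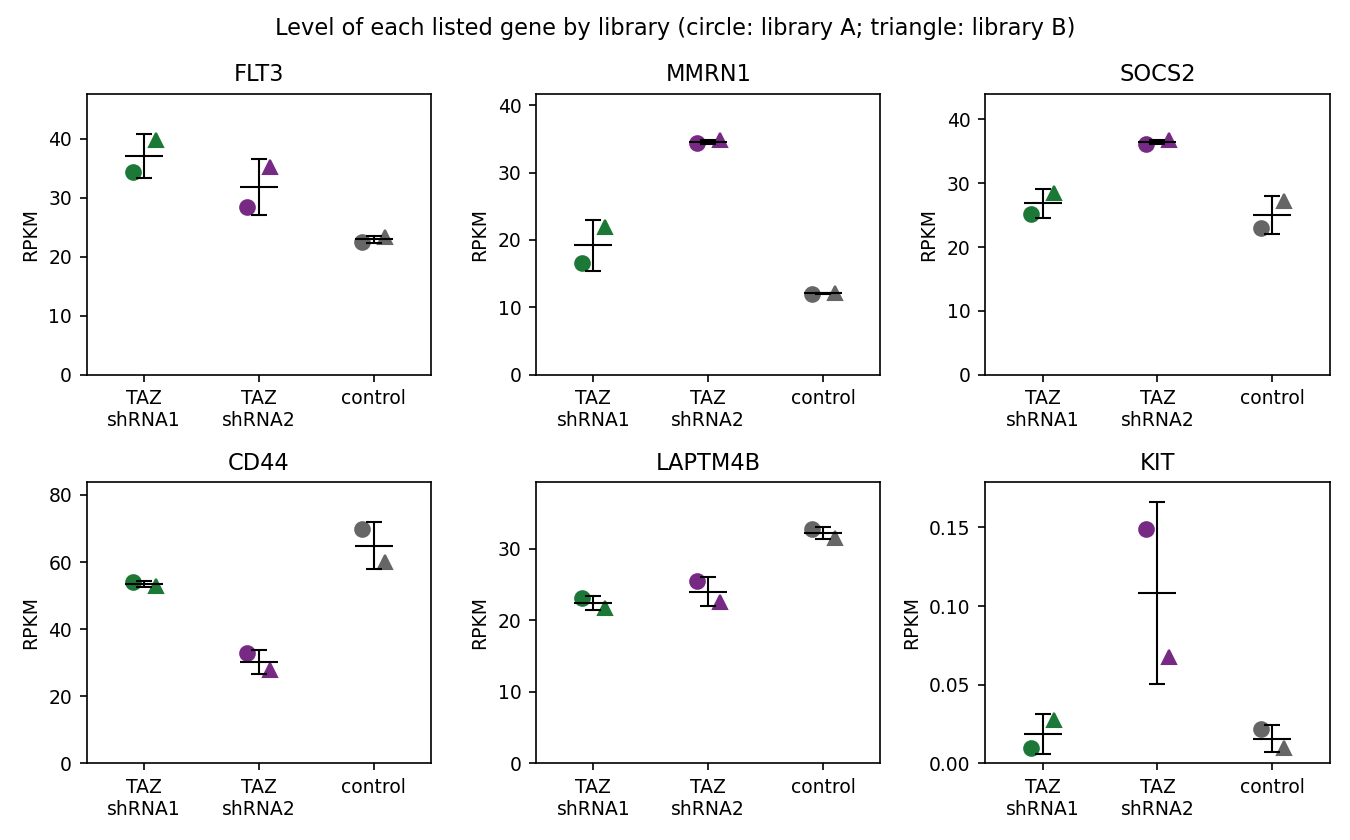
RPKM of each member with a row in every library, with TAZ shRNA1, TAZ shRNA2 and control along the x axis, circles for library A, triangles for library B, and the mean and SD of the 2 libraries as bars. Each panel has its own y axis from 0, and KIT stays below 0.15 RPKM in all 6 libraries.

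Among the receptors, FLT3 lay above both control libraries in each of the 4 TAZ hairpin libraries. FLT3 (gene ID 2322) stood at 34.4 and 39.7 RPKM with shRNA1, at 28.5 and 35.2 RPKM with shRNA2 and at 22.5 and 23.3 RPKM in control. These levels rest on 2725 and 3220 reads with shRNA1, 2129 and 2719 with shRNA2 and 1548 and 1815 in control. Neither hairpin group overlapped control, while the 2 hairpin groups overlapped each other. With shRNA1 the mean was 1.62 times that of control and the log2 fold change was 0.68 (SE 0.12, 95% interval 0.39 to 0.97, limma adjusted p = 0.0137). The call was lost without shRNA1 B (0.58, adjusted p = 0.143). Here and below, leaving out 1 library leaves a group with a single library, whose spread is assumed to equal that of the remaining libraries. With shRNA2 the mean was 1.39 times that of control, with a log2 fold change of 0.46 (interval 0.10 to 0.82) and a limma adjusted p of 0.0827. One fit of all 6 libraries, which shares their spread, put that adjusted p at 0.0462. FLT3 with shRNA2 minus shRNA1 differed by -0.22 (interval -0.54 to 0.10, limma adjusted p = 0.37).

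KIT (gene ID 3815), the other receptor, was close to the detection limit. It had 1 and 3 reads with shRNA1, 15 and 7 reads with shRNA2 and 2 and 1 reads in control. These come to 0.00937 and 0.0275 RPKM with shRNA1, 0.149 and 0.0673 RPKM with shRNA2 and 0.0216 and 0.00953 RPKM in control. Both shRNA2 libraries were above the other 4, and shRNA1 overlapped control. Only 0.177% of listed genes had a lower mean level in control. Scaled for depth, the summed reads gave a ratio over control of 1.24 with shRNA1 (exact 95% interval 0.21 to 8.47, from 4 against 3 reads) and of 7.35 with shRNA2 (2.21 to 38.4, from 22 against 3 reads). These intervals cover counting error only, not the spread between libraries. No listed gene had fewer than 13 reads over the 6 libraries. KIT may thus have a row only through its shRNA2 reads. Neither the shRNA2 interval nor the authors' test allows for that. The authors' deposited table gives KIT a log2 fold change of 2.70 with shRNA2 (adjusted p = 0.00538), in a test that called 38.8% of all genes (19.9% higher, 18.9% lower), and of 0.28 with shRNA1 (adjusted p = 0.868), where it called 35.9% (18.8% higher, 17.1% lower).

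CD44, the hyaluronan receptor, was the most abundant member in control, above 90.4% of listed genes there, and fell with shRNA2. CD44 (gene ID 960) stood at 54.0 and 52.9 RPKM with shRNA1, at 32.7 and 27.7 RPKM with shRNA2 and at 69.9 and 59.9 RPKM in control. The read numbers were 6388 and 6400 with shRNA1, 3647 and 3189 with shRNA2 and 7167 and 6966 in control. The 3 groups did not overlap, with shRNA2 lowest and shRNA1 between it and control. With shRNA2 the mean was 0.465 times that of control, a log2 fold change of -1.09 (SE 0.16, interval -1.46 to -0.72, limma adjusted p = 0.00712). Leaving out single libraries gave values of -1.21 to -0.97, with adjusted p of at most 0.0101. With shRNA1 the mean was 0.824 times that of control, with a log2 fold change of -0.27 (interval -0.56 to 0.02, limma adjusted p = 0.157), and CD44 was called there only without control B (-0.38, adjusted p = 0.0168).

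Of the 3 score genes with a row, MMRN1 had the widest difference from control. MMRN1 (gene ID 22915) stood at 16.5 and 21.9 RPKM with shRNA1, at 34.4 and 34.8 RPKM with shRNA2 and at 11.97 and 12.15 RPKM in control. The reads were 1693 and 2292 with shRNA1, 3319 and 3473 with shRNA2 and 1064 and 1224 in control. The 3 groups did not overlap, with shRNA2 highest, and the shRNA1 libraries were farther apart (27.8% of their mean) than those of shRNA2 (1.23%) or control (1.5%). With shRNA2 the mean was 2.87 times that of control and the log2 fold change was 1.48 (SE 0.13, interval 1.17 to 1.79, limma adjusted p = 0.00245). Leaving out single libraries gave 1.47 to 1.49, called each time. With shRNA1 the mean was 1.59 times that of control and the log2 fold change was 0.64 (SE 0.15, interval 0.27 to 0.998, limma adjusted p = 0.0318). That call was lost without shRNA1 B (0.44, adjusted p = 0.307).

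SOCS2, the cytokine signalling inhibitor, was higher in both shRNA2 libraries than in the other 4. SOCS2 (gene ID 8835) stood at 25.2 and 28.4 RPKM with shRNA1, at 36.2 and 36.7 RPKM with shRNA2 and at 22.9 and 27.2 RPKM in control. The reads were 1499 and 1729 with shRNA1, 2027 and 2126 with shRNA2 and 1182 and 1587 in control. The shRNA1 libraries overlapped the control libraries. With shRNA2 the mean was 1.46 times that of control and the log2 fold change was 0.54 (SE 0.15, interval 0.20 to 0.88, limma adjusted p = 0.0463). The call was lost without shRNA2 A (adjusted p = 0.104), without shRNA2 B (0.152), without control A (0.189) and with no filter on low values (0.0511). With shRNA1 the log2 fold change was 0.10 (interval -0.22 to 0.42, limma adjusted p = 0.623), and -0.02 without control A. The antisense gene SOCS2-AS1 overlaps SOCS2, and without a stated strand setting their reads cannot be told apart. SOCS2-AS1 stood at 3.46 and 3.71 RPKM with shRNA1, at 3.50 and 5.20 RPKM with shRNA2 and at 2.92 and 2.23 RPKM in control, and was not called.

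LAPTM4B, the endosomal and lysosomal membrane protein, lay below both control libraries in each of the 4 TAZ hairpin libraries. LAPTM4B (gene ID 55353) stood at 23.1 and 21.7 RPKM with shRNA1, at 25.5 and 22.5 RPKM with shRNA2 and at 32.8 and 31.6 RPKM in control. It had 1067 and 1025 reads with shRNA1, 1109 and 1014 with shRNA2 and 1313 and 1432 in control. The 2 hairpin groups overlapped each other. With shRNA1 the mean was 0.696 times that of control and the log2 fold change was -0.51 (SE 0.11, interval -0.78 to -0.25, limma adjusted p = 0.0246), a call lost without shRNA1 A (0.112) or shRNA1 B (0.238). With shRNA2 the mean was 0.746 times that of control, with a log2 fold change of -0.42 (interval -0.74 to -0.09) and a limma adjusted p of 0.0848, or 0.0372 in one fit of all 6 libraries.

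**Figure D2:**
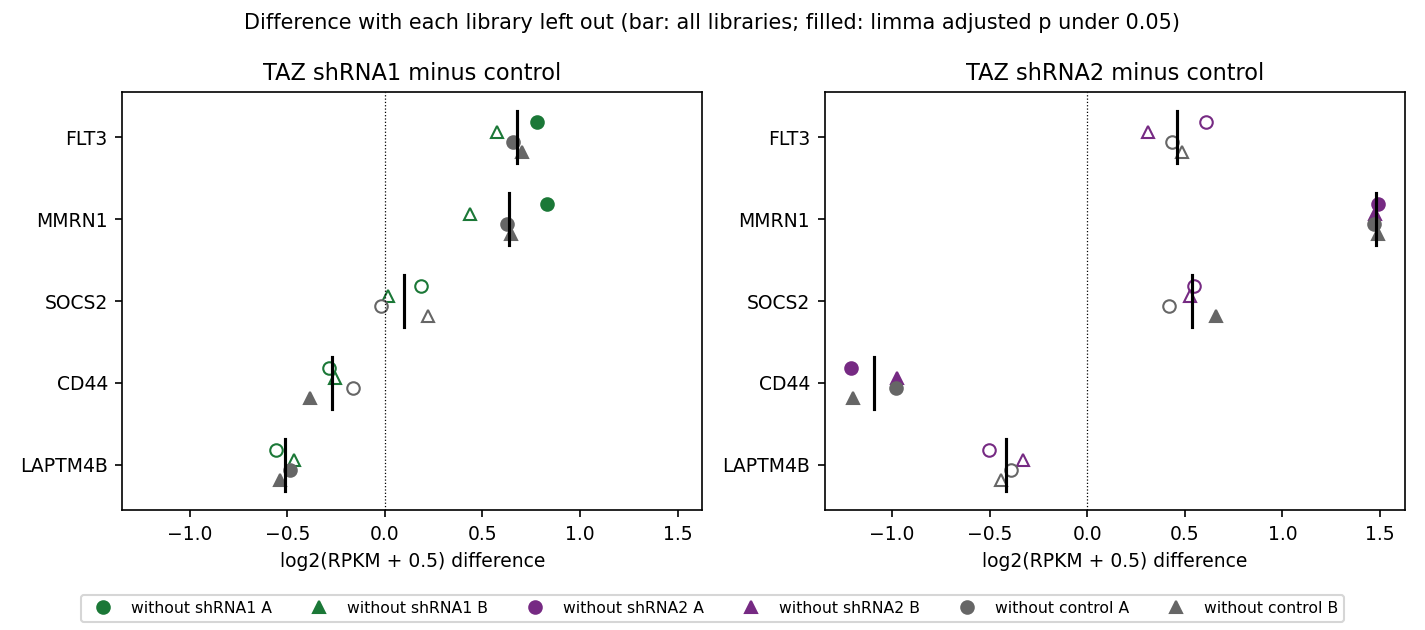
Difference from control on the log2(RPKM + 0.5) scale for the 5 members tested, with shRNA1 on the left and shRNA2 on the right. Each point is the value with 1 library left out, the bar is the value with all libraries, and filled points were called by limma, with the spread taken from the libraries that remain. In the shRNA2 panel all 4 points of CD44 and of MMRN1 are filled.

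The hairpins were also compared with each other, in a fit of all 6 libraries. CD44 and MMRN1 differed between them, 2 of 5 members (1 higher, 1 lower), where 10.9% of 10660 genes were called (4.78% higher, 6.1% lower). For CD44 the log2 difference of shRNA2 minus shRNA1 was -0.82 (SE 0.14, interval -1.13 to -0.51, limma adjusted p = 0.00864). That call was lost without shRNA1 A (adjusted p = 0.092), shRNA1 B (0.0893) or shRNA2 B (0.0504). MMRN1 was higher with shRNA2 by 0.85 (SE 0.15, interval 0.51 to 1.179, limma adjusted p = 0.01), lost without shRNA1 A (0.102), shRNA2 A (0.0543) or shRNA2 B (0.0567). SOCS2 had a difference of 0.44 (interval 0.14 to 0.74, limma adjusted p = 0.0705), which passed without control A (0.042) or control B (0.0423). For LAPTM4B the difference was 0.10 (interval -0.18 to 0.37, limma adjusted p = 0.667). TAZ, the targeted gene, itself differed by -1.001 on this scale (limma adjusted p = 0.00801), lost without shRNA1 A or shRNA1 B.

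**Figure D3:**
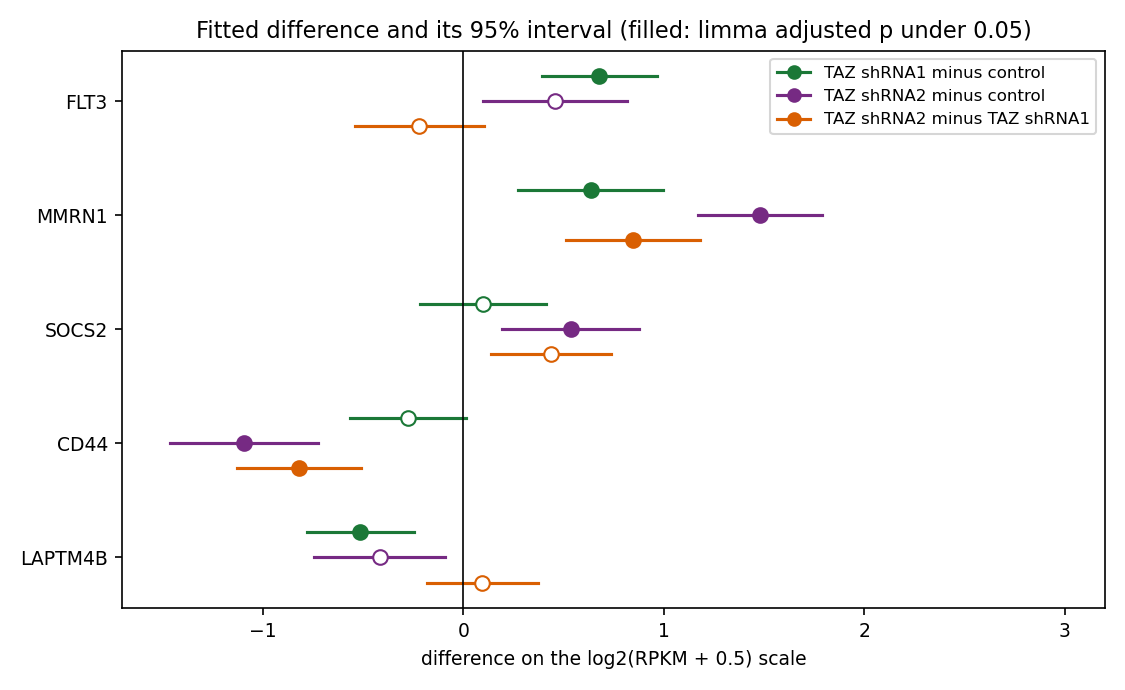
Fitted difference on the log2(RPKM + 0.5) scale (x axis) for each member tested, with its 95% interval as a line, for TAZ shRNA1 minus control, TAZ shRNA2 minus control and TAZ shRNA2 minus TAZ shRNA1. Filled points were called by limma; those of MMRN1 are filled in all 3 comparisons and those of FLT3 and LAPTM4B only for shRNA1 minus control.

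The order of the members by level differed between the groups. With shRNA1 the order was CD44, FLT3, SOCS2, LAPTM4B, MMRN1 and KIT, where LAPTM4B and MMRN1 overlapped. With shRNA2 it was SOCS2, MMRN1, FLT3, CD44, LAPTM4B and KIT, where MMRN1 overlapped FLT3 and FLT3 overlapped CD44. In control it was CD44, LAPTM4B, SOCS2, FLT3, MMRN1 and KIT, where SOCS2 and FLT3 overlapped. The RPKM of MMRN1 divided by that of CD44 was 0.306 and 0.413 with shRNA1, 1.05 and 1.26 with shRNA2 and 0.171 and 0.203 in control. MMRN1 was thus above CD44 per length in both shRNA2 libraries and in none of the other 4.

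The genes whose levels followed each member most closely over the 6 libraries were named by Pearson r of log2(RPKM + 0.5) over 10660 genes, as a description. All share the same libraries and normalization. For FLT3 they were SMCR8, ATP2B4 and DOCK8 (r = 0.998, 0.994 and 0.993), with SMCR8 at 5.63 and 7.20 RPKM with shRNA1, 4.41 and 6.13 RPKM with shRNA2 and 2.79 and 3.09 RPKM in control. For CD44 they were PWP1, TIMM21 and POLD2 (r = 0.999, 0.999 and 0.998), with POLD2, a subunit of DNA polymerase delta, at 76.5 and 71.7 RPKM with shRNA1, 46.4 and 41.6 RPKM with shRNA2 and 92.5 and 79.2 RPKM in control. For MMRN1 they were FAM172A, CXorf38 and NCOA3 (r = 0.999, 0.996 and 0.996), and NCOA3 is a nuclear receptor coactivator. For LAPTM4B they were RAD50, a DNA repair protein, C14orf166 and ESD (r = 0.995 each). For SOCS2 they were KLHL9, RAP2C and DAK (r = 0.994, 0.994 and 0.993).

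Other surface proteins of leukaemic stem cells and blasts rose more often than they fell. Of 20 listed, 14 had a row and 12 were tested. With shRNA1 8 rose and 1 fell, with a median log2 fold change of 0.74. With shRNA2 3 rose and 1 fell, with a median of 0.50, while the median over all genes tested was within 0.01 of 0 in both comparisons. CD93, a C-type lectin of stem cells and monocytes, stood at 53.9 and 55.1 RPKM with shRNA1, 54.8 and 62.5 RPKM with shRNA2 and 23.1 and 29.1 RPKM in control, and rose with both (limma adjusted p = 0.00528 and 0.00661). IL1RAP, the co-receptor of interleukin 1, stood at 20.2 and 21.1 RPKM with shRNA1, 13.3 and 13.2 RPKM with shRNA2 and 7.85 and 7.18 RPKM in control. It rose with both (log2 fold changes 1.40 and 0.78, the second call lost without shRNA2 B), and its level with shRNA2 was below that with shRNA1 (-0.62, limma adjusted p = 0.0139, lost without any one of the 4 hairpin libraries). CXCR4, the receptor that holds cells in the marrow, moved in opposite directions, with 140.2 and 141 RPKM with shRNA1, 41.6 and 34.2 RPKM with shRNA2 and 72.9 and 55.7 RPKM in control. It rose by 1.14 with shRNA1 (limma adjusted p = 0.00531), fell by 0.75 with shRNA2 (0.0346, lost without shRNA2 B or control A) and differed between the hairpins by -1.88 (0.000905). PTPRC, the CD45 phosphatase, rose with both (0.60 and 0.58), with calls lost without shRNA1 B and without any one of the 4 libraries of the shRNA2 comparison. The counts of this list changed when single libraries were left out, as did the number of all genes called. With all libraries 18.6% of all genes were called with shRNA1 and 15.7% with shRNA2. One fit of all 6 libraries called 7 with shRNA2 (5 higher, 2 lower), beside 2584 of 10660 genes in all.

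Of the ligands and signalling proteins of KIT and FLT3, all 24 had a row. With shRNA1 22 were tested, of which 5 rose and 1 fell (median 0.28), and with shRNA2 23 were tested, of which 3 rose (median 0.24). These counts stand beside 18.6% and 15.7% of all genes called, and with shRNA2 the count is no higher than that share. JAK2, a kinase that activates STAT5, stood at 6.74 and 6.37 RPKM with shRNA1, 6.50 and 6.65 RPKM with shRNA2 and 2.83 and 2.86 RPKM in control. It rose by 1.08 with each (limma adjusted p = 0.00508 with shRNA1 and 0.00637 with shRNA2), without overlap with control. LYN and the PI3 kinase subunits PIK3R1 and PIK3CG rose with shRNA1 (0.51, 0.72 and 0.50), with calls lost without either shRNA1 library and, for PIK3R1, with no filter. STAT5A, picked after its values were seen, stood at 0.783 and 1.05 RPKM with shRNA1, 2.40 and 2.67 RPKM with shRNA2 and 0.788 and 0.684 RPKM in control. It rose with shRNA2 by 1.29 (limma adjusted p = 0.00783), where it passed the filter only through its shRNA2 level. FLT3LG, the FLT3 ligand and also picked later, stood at 0.613 and 1.07 RPKM with shRNA1, 1.30 and 1.57 RPKM with shRNA2 and 1.62 and 1.83 RPKM in control, and fell with shRNA1 (-0.75, limma adjusted p = 0.0487). FLT3LG passed the filter there only through its control level. The 1 that fell in this list is thus counted only through that level. The FLT3LG call was lost without either shRNA1 library, with a pseudocount of 0.1 and with limma-voom. With all libraries 6 of this list were called with shRNA1 and 3 with shRNA2. The shRNA1 count was lower without either shRNA1 library and higher without either control library, as was the number over all genes. The shRNA2 count was lower without shRNA2 B and higher without control B, as was the number over all genes.

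Relatives of SOCS2 were not called by the test used here, though some other settings called SOCS3, SOCS4, SOCS5 or CISH. Of 7 other members of the SOCS family limma called 0 of 5 tested with shRNA1 and 0 of 6 with shRNA2, against 1 and 2 at an unadjusted p under 0.05, 0 and 1 by limma-voom on recovered reads and 2 and 2 of 7 in the authors' deposited table. The authors' test called 35.9% of all genes with shRNA1 and 38.8% with shRNA2. Over all genes limma-voom called 1963 of 10613 with shRNA1 and 1785 of 10659 with shRNA2. Without control B the log2 fold changes with shRNA1 were 0.52 for SOCS4 and -0.65 for CISH. Without shRNA2 A, SOCS3 had 1.12 with shRNA2. CISH, another STAT5 target of this family, stood at 1.92 and 1.73 RPKM with shRNA1, 1.68 and 2.02 RPKM with shRNA2 and 3.15 and 2.33 RPKM in control (limma adjusted p = 0.111 and 0.165). SOCS5 stood at 1.76 and 1.76 RPKM with shRNA1, 2.12 and 2.48 RPKM with shRNA2 and 1.24 and 1.30 RPKM in control (limma adjusted p = 0.153 and 0.0526). With shRNA2 SOCS5 passed in one fit of all 6 libraries (0.0201), with limma-voom (0.0325), with quantile normalization (0.0485) and with robust empirical Bayes (0.0456). With all libraries SOCS4 and SOCS6 had log2 fold changes between -0.08 and 0.26. Of 6 STAT5 targets tested, 2 rose with shRNA1 and 1 with shRNA2, where 18.6% and 15.7% of all genes were called, so the count with shRNA2 is near that share. One fit of all 6 libraries called 3 with shRNA2, and limma-voom 2. Over all genes these settings called 2584 of 10660 and 1785 of 10659. ID1, an inhibitor of helix-loop-helix factors, rose by 1.10 with shRNA1 (limma adjusted p = 0.028, lost without shRNA1 A) and by 1.24 with shRNA2 (0.0166). BCL2L1, which encodes the survival protein BCL-XL, rose by 0.56 with shRNA1 (0.033, lost without either shRNA1 library) and had 0.53 with shRNA2 (0.0526). BCL2L1 with shRNA2 passed in one fit of all 6 libraries (0.0212), with robust empirical Bayes (0.0479) and with the filter at 5 RPKM (0.0488). PIM1, a survival kinase, had -0.39 with shRNA1 and 0.27 with shRNA2. With shRNA1 fewer STAT5 targets were called without either shRNA1 library and more without control B, as over all genes. With shRNA2 more were called without control B, as over all genes. More were also called without shRNA2 A, where the number over all genes was lower.

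Among ligands, partners and proteases of CD44, 18 of 20 had a row and 16 were tested. With shRNA1 5 rose and 2 fell (median 0.27), and with shRNA2 3 rose (median 0.26), beside 18.6% and 15.7% of all genes called, so the count with shRNA2 is near that share. With shRNA2 one fit of all 6 libraries and limma-voom called 6 each. Over all genes these settings called 2584 of 10660 and 1785 of 10659. ADAM10, a protease that cleaves CD44 from the surface, stood at 45.8 and 50.5 RPKM with shRNA1, 46.0 and 45.2 RPKM with shRNA2 and 29.1 and 31.9 RPKM in control. It rose with both (log2 fold changes 0.65 and 0.57, limma adjusted p = 0.0142 and 0.0336), with calls lost without shRNA1 B and without shRNA2 A, shRNA2 B or control A. SPP1, which encodes the CD44 ligand osteopontin, stood at 0.348 and 0.261 RPKM with shRNA1, 20.1 and 10.6 RPKM with shRNA2 and 2.96 and 0.680 RPKM in control. It rose with shRNA2 (2.91, limma adjusted p = 0.0103, and 0.0599 with robust empirical Bayes) and exceeded its shRNA1 level there by 4.24 (0.00155), the opposite of CD44. HYAL3, a hyaluronidase relative, rose with shRNA1 (1.12, limma adjusted p = 0.0249, and 0.0629 with robust empirical Bayes) and had 0.90 with shRNA2 (0.0552). With shRNA2 HYAL3 passed by limma-voom (0.0161), in one fit of all 6 libraries (0.0294) and after quantile normalization (0.0458). The hairpins differed by -0.22 for HYAL3 (limma adjusted p = 0.616). SRGN, the proteoglycan serglycin, stood at 7563 and 7030 RPKM with shRNA1, 10350 and 6805 RPKM with shRNA2 and 4632 and 3129 RPKM in control (limma adjusted p = 0.0522 and 0.0981). SRGN was called with both hairpins by limma-voom (0.00701 and 0.00379) and after quantile normalization (0.00107 and 0.00427), with shRNA1 also by robust empirical Bayes (0.0255), the filter at 5 RPKM (0.0417) and without either control library, and with shRNA2 also in one fit of all 6 libraries (0.0302). With all libraries 7 of this list were called with shRNA1. That number was lower without either shRNA1 library and higher without control A, as was the number over all genes. With shRNA2 3 were called, and fewer without shRNA2 A, as over all genes.

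Of the 11 other genes of the LSC17 score, 10 had a row, of which 5 were tested with shRNA1 and 4 with shRNA2. With shRNA1 2 fell (median log2 fold change -0.15), and with shRNA2 2 rose and 1 fell (median 0.64). Over all genes 18.6% were called with shRNA1 (8.58% lower) and 15.7% with shRNA2 (8.12% higher, 7.61% lower). EMP1, below, is in the shRNA2 count only through its level there. DNMT3B, a DNA methyltransferase, stood at 3.10 and 2.97 RPKM with shRNA1, 2.86 and 3.16 RPKM with shRNA2 and 4.65 and 6.04 RPKM in control. It fell with both (log2 fold changes -0.72 and -0.73, limma adjusted p = 0.0274 and 0.0359), with calls lost without either library of the hairpin, and with shRNA2 also without control B and with no filter (0.0507). AKR1C3, an aldo-keto reductase, stood at 3.65 and 3.60 RPKM with shRNA1, 10.97 and 7.60 RPKM with shRNA2 and 7.35 and 5.601 RPKM in control. It fell with shRNA1 (-0.75, limma adjusted p = 0.0244, lost without either shRNA1 library) and stood higher with shRNA2 than with shRNA1 by 1.23 (0.00706, lost without either shRNA1 library). CDK6, a cell cycle kinase, rose with shRNA2 (0.81, limma adjusted p = 0.0398, lost without shRNA2 B or control A and with no filter). EMP1, picked after its values were seen, rose with shRNA2 (1.71, limma adjusted p = 0.0183) at 3.23 and 1.77 RPKM against 0.678 and 0.176 RPKM in control, and passed the filter through its shRNA2 level. With shRNA1 the count for this list was lower without either shRNA1 library and higher without control B, as over all genes. With shRNA2 the count was lower without either shRNA2 library, as over all genes. It was also lower without control B, where the number over all genes was higher.

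Relatives and partners of GPR56, MMRN1, LAPTM4B and NGFRAP1 had 7 of 14 with a row. Of these 5 were tested with shRNA1 and 6 with shRNA2, and 2 rose with each. Over all genes 9.99% were called higher with shRNA1 and 8.12% with shRNA2. LAPTM5, a lysosomal relative of LAPTM4B in blood cells, stood at 216.5 and 208 RPKM with shRNA1, 264 and 252 RPKM with shRNA2 and 119 and 121.5 RPKM in control. It rose with both (log2 fold changes 0.82 and 1.10, limma adjusted p = 0.007 and 0.00683), opposite to LAPTM4B, with the shRNA1 call lost without shRNA1 A or shRNA1 B. LAPTM4A, the closest relative, rose with shRNA2 (0.64, limma adjusted p = 0.0419, lost without shRNA2 A or control B) and had 0.40 with shRNA1 (0.0807). EMILIN2, an extracellular protein of the MMRN1 family, stood at 33.2 and 33.2 RPKM with shRNA1, 19.4 and 17.4 RPKM with shRNA2 and 14.1 and 14.3 RPKM in control. It rose with shRNA1 (1.19, limma adjusted p = 0.0021) and stood below that level with shRNA2 (-0.84, 0.00433, lost without either shRNA1 library), whereas MMRN1 was higher with shRNA2. EMILIN1 had -0.27 with shRNA1 and 0.09 with shRNA2. With shRNA1 the count was lower without either shRNA1 library, as was the number over all genes. With shRNA2 it was lower without shRNA2 A, as over all genes. It was also lower without control B, where the number over all genes was higher.

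Of 8 stem and progenitor transcription factors tested, limma called 0 with shRNA1, beside 18.6% of all genes there and 15.7% with shRNA2. At an unadjusted p under 0.05 there were 3 with shRNA1, and by limma-voom on recovered reads 2, beside 1963 of 10613 genes in all. The authors' deposited table called 3 with shRNA1, beside 35.9% of all genes. More factors were called with shRNA1 without either control library, where the number over all genes was also higher. With shRNA2 GATA2 and LYL1 fell, with 4 factors at an unadjusted p under 0.05. Both calls were lost without shRNA2 B or control A, where fewer genes were also called over all. More factors were called without control B, as over all genes. LYL1, a haematopoietic helix-loop-helix factor, stood at 34.1 and 29.5 RPKM with shRNA1, 28.6 and 24.3 RPKM with shRNA2 and 41.5 and 36.4 RPKM in control (log2 fold change -0.55 with shRNA2, limma adjusted p = 0.0491, lost with no filter, with limma-voom and without shRNA2 A, shRNA2 B or control A). BMI1, a polycomb protein of self-renewal, stood at 1.58 and 1.45 RPKM with shRNA1, 1.35 and 1.78 RPKM with shRNA2 and 0.554 and 0.964 RPKM in control (limma adjusted p = 0.0563 and 0.0846). With shRNA1 BMI1 passed by limma-voom (0.0441) and robust empirical Bayes (0.0449), and with shRNA2 in one fit of all 6 libraries (0.0398). It passed the filter through its levels with the hairpins. RUNX1 and LMO2, factors of blood cell formation, had log2 fold changes between 0.14 and 0.39 and were not called, although RUNX1 passed with shRNA1 by limma-voom (0.0434) and without control A (0.0217) or control B (0.0293).

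**Figure D4:**
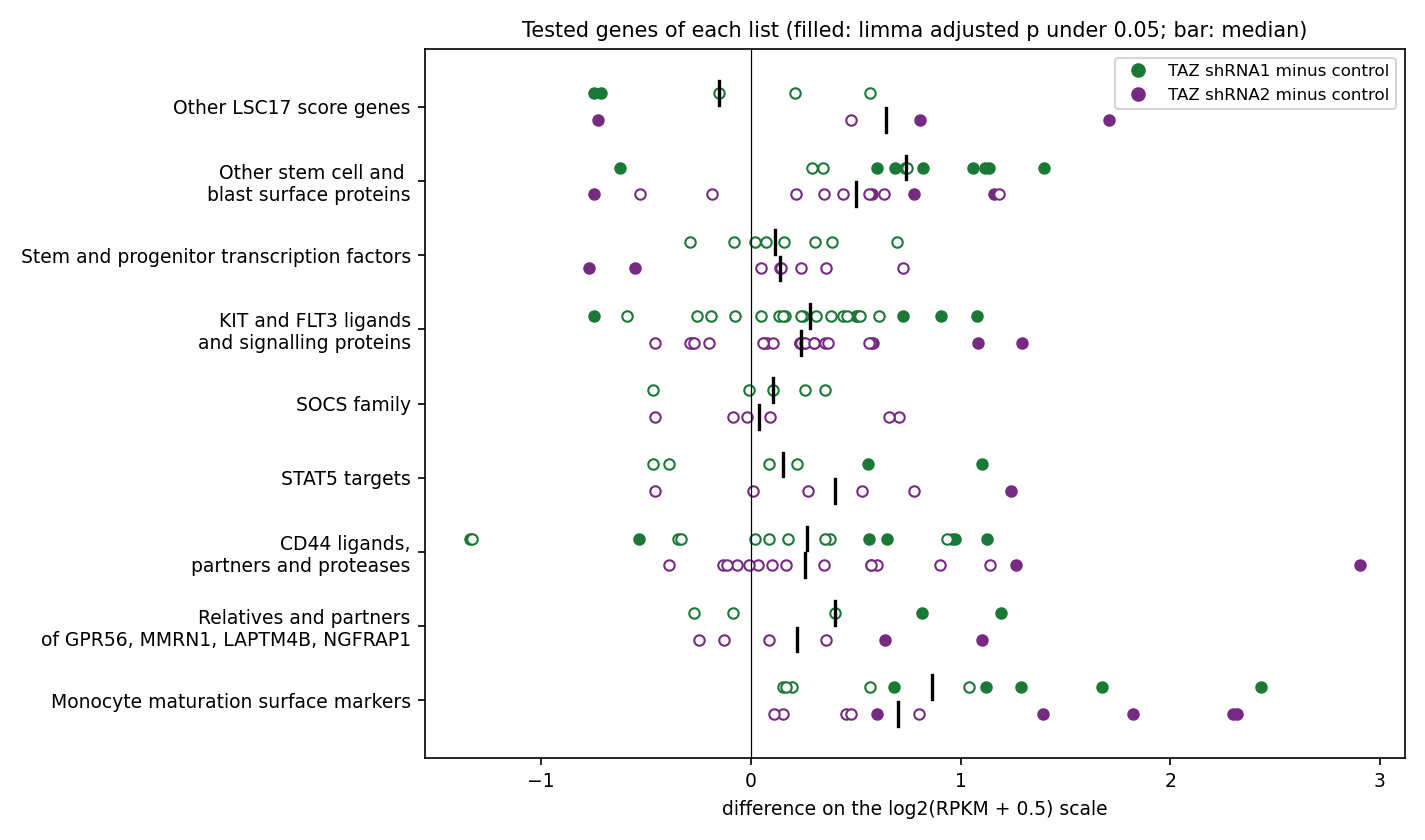
Difference from control on the log2(RPKM + 0.5) scale for each tested gene of the 9 gene lists, shRNA1 above shRNA2 within each list, with filled points for genes called by limma and a bar at the median of the list. The surface proteins and the monocyte markers have medians from 0.50 to 0.86 over both hairpins. The other LSC17 genes have a median of 0.64 with shRNA2 (4 tested) and -0.15 with shRNA1 (5 tested). The SOCS family has no filled point.

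Surface markers of monocyte maturation were higher with the hairpins where they passed the test. Of 10 tested, 5 rose with shRNA1 (median 0.86) and 5 with shRNA2 (median 0.70). Over all genes 18.6% and 15.7% were called (9.99% and 8.12% higher). The counts changed when single libraries were left out. CSF1R, the receptor of macrophage growth factor and a relative of KIT and FLT3, stood at 10.1 and 11.1 RPKM with shRNA1, 5.11 and 6.01 RPKM with shRNA2 and 4.02 and 2.16 RPKM in control (limma adjusted p = 0.00705 and 0.0717). With shRNA2 CSF1R passed by limma-voom (0.0322) and in one fit of all 6 libraries (0.0368). CD4, also found on monocytes, rose with both (1.12 and 0.60, limma adjusted p = 0.00354 and 0.029, the second lost without either shRNA2 library). CCR2 rose by 2.43 and 1.82 and CD36 by 1.29 and 2.30, with CD36 passing the filter through its levels with the hairpins. CD36 is thus in both counts only through those levels. Of other cell types, T and NK cell markers summed to 9.78 to 10.6 RPKM with shRNA1, 9.88 to 9.94 RPKM with shRNA2 and 7.004 to 7.16 RPKM in control (2 of 5 with a row, nearly all NCAM1, with CD3D at most 0.981 RPKM). B cell markers summed to at most 1.25 RPKM (3 of 4) and EPOR, the only erythroid marker of 4 with a row, stood between 2.75 and 4.99 RPKM. PECAM1, the only stromal or epithelial marker of 6 with a row, stood between 18.3 and 21.3 RPKM with shRNA1, 16.6 and 22.8 RPKM with shRNA2 and 6.82 and 9.18 RPKM in control. The part of these markers in the members' changes was not tested.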

How the data were processed

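RNA was sequenced from 6 OCI-AML2 libraries in 3 groups of 2 with a directional kit, per the labels' protocols. The submitters' processing notes name the build hg19 and, without saying what each did, edgeR 3.8.6, DESeq 1.18.0, HTSeq 0.6.1p2, TopHat2 2.0.11 and Trim Galore 0.4.0. For each hairpin the authors deposited a table that, per the file headers, holds the RPKM of its 4 libraries. It also has the authors' log2 fold change, log2 CPM, score of a likelihood-ratio test, p-value and adjusted p-value. How the authors filtered genes, and whether counting used strand, is not given in the sources used here. RPKM denominators were not stated.

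Table titles and column letters tied each column to a library, and the control columns were the same in both tables. Of 13004 rows, 21 date-like symbols were renamed through their gene ID and 2 exact repeats were dropped. Whole reads were recovered from the RPKM steps for 13001 of 13002 genes (within 0.01 reads), which gave the depth of 18820248 to 20980538 reads in listed genes. The SD of the log2 difference between libraries A and B was 0.211 with shRNA1, 0.289 with shRNA2 and 0.339 in control.

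Values were log2(RPKM + 0.5) for genes that averaged 1 RPKM or more in the libraries fitted. limma 3.58.1 (R 4.3.3; empirical Bayes with trend, two-sided, Benjamini-Hochberg over all genes tested, threshold 0.05) compared each hairpin with control in 4 libraries, and the hairpins with each other in 6. The code was tested on simulated data. It recovered 52% of changes of log2 size 1 with shRNA1 and 26% with shRNA2. For changes of log2 size 2 it recovered 92% and 78.8%. A gene that did not pass may thus still have changed. Motifs and promoters come from RefSeq on GRCh38.p14, another build than the tables.

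The members and gene lists were chosen with earlier results of these data known. Named genes are all members, TAZ, from each list up to 4 genes ranked by the larger of their p-values against control, and the 3 genes most like each member. Genes said to be picked later are outside this rule, as are GATA2 and SOCS2-AS1. Alternatives were pseudocounts of 0.1 and 1, no filter or 5 RPKM, quantile normalization, one fit of all 6 libraries, a replicate block, robust empirical Bayes, limma-voom on recovered reads, the authors' deposited test and leaving out each library.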

Additional observations from a re-analysis of the deposited data

Results flagged for a closer look

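The effect of knockdown on 2 members differed between the hairpins in a test of that difference itself. CD44 stood at 32.7 and 27.7 RPKM with shRNA2 and at 54.0 and 52.9 RPKM with shRNA1, a difference of -0.82 on the log2(RPKM + 0.5) scale (limma adjusted p = 0.00864, lower in 2 of 2 shRNA2 libraries than in both shRNA1 libraries). MMRN1 stood at 34.4 and 34.8 RPKM with shRNA2 and at 16.5 and 21.9 RPKM with shRNA1, a difference of 0.85 (limma adjusted p = 0.01, higher in 2 of 2). Both calls depended on single libraries: CD44 lost its call without shRNA1 A, shRNA1 B or shRNA2 B, with an adjusted p between 0.00457 and 0.092 over all libraries left out in turn, and MMRN1 lost it without shRNA1 A, shRNA2 A or shRNA2 B, with a range of 0.0071 to 0.102. TAZ was also lower with shRNA2 than with shRNA1, and its part in these differences was not tested.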

How the results depend on the processing

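Over all members, comparisons and alternatives, 185 results stayed in direction and on their side of the threshold, 10 passed it newly, 14 no longer passed and 1 changed direction (SOCS2 with shRNA1, not called, whose values with a library left out ran from -0.0201 without control A to 0.22 without control B). With shRNA1, 3 members were called under every alternative that kept all libraries, and 0 (without shRNA1 B, where 2 had an unadjusted p under 0.05) to 4 (without control B) with a library left out. With shRNA2 the 3 calls became 5 in one fit of all 6 libraries, 5 with the replicate block and 6 of 6 members in the authors' deposited test, which added FLT3, LAPTM4B and, in the last, KIT, and 2 to 3 with a library left out. Between the hairpins the 2 calls became 0 (without shRNA1 A, where 2 had an unadjusted p under 0.05, or without shRNA2 B, where 4 had) to 3 (without either control library).

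The replicate block used the letters A and B. Deviations of same-letter libraries from their group means correlated at 0.26 (shRNA1 and control), 0.423 (shRNA2 and control) and 0.367 (both hairpins) over 10660 genes, but 2 letters cannot show a pairing and the labels do not state one. Under the block SOCS2 also passed between the hairpins (limma adjusted p = 0.0156). Over all genes the block called 3780 of 10613 with shRNA1 and 4170 of 10659 with shRNA2. With shRNA2 it called 10 of 12 other surface proteins (8 higher, 2 lower), 8 of 23 KIT and FLT3 signalling genes, 8 of 16 CD44 partners, 4 of 8 transcription factors, 3 of 6 STAT5 targets and 2 of 6 SOCS genes (SOCS5 and SOCS3). With shRNA1 it called 11 of 22 KIT and FLT3 signalling genes, 11 of 16 CD44 partners, 2 of 8 transcription factors and 1 of 5 SOCS genes (CISH). The 8 of 23 signalling genes and 2 of 6 SOCS genes with shRNA2 are no higher than the share of all genes. Nor are the 2 of 8 transcription factors and 1 of 5 SOCS genes with shRNA1. The block also called SRGN (0.03 with shRNA1 and 1.21e-06 with shRNA2) and RUNX1 (0.0159 and 0.0397). The block raised the number of all genes called to 3780 (main 1971) with shRNA1, 4170 (main 1676) with shRNA2 and 2396 (main 1160) between the hairpins. The authors' deposited test calls 4662 and 5044 genes, and one fit of all 6 libraries 2584 with shRNA2. With a library left out these numbers lay between 461 (without shRNA1 B) and 4397 (without control B) with shRNA1, 823 (without shRNA2 B) and 2010 with shRNA2, and 155 (without shRNA1 B) and 1622 between the hairpins. The cause of these changes was not tested. The members other than KIT rest on at least 1014 reads in each library, while KIT had 1 to 15. How much depth and the number of libraries each limit precision was not tested.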
